A study of Rattus norvegicus with 24 samples.

Results

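The 6 arrays titled Intact-1 to Intact-6 are described as midbrain RNA of gonadally intact rats in proestrus. Proestrus is the phase of the estrous cycle in which female rats accept a male. They were taken by title from the 24 expression arrays of the series. Intact-1, Intact-3 and Intact-5 are labelled paced, and Intact-2, Intact-4 and Intact-6 are labelled chamber-exposed, so that 3 arrays stood against 3. The rats are described as Long–Evans females of 50 to 60 days. Paced mated rats were tested with a male in a chamber whose partition let the female leave and return, and controls spent the 15 min of a test in the empty chamber. No surgery or hormone is described for the intact rats. The 6 arrays of ovariectomized (OVX) rats are used for comparison. These rats received 10 µg of estradiol benzoate 44 h before the same test, which came 10 days after surgery. A normalization run shared with the Intact-named arrays was inferred from their lowest signals, and no label states it. The title prefixes differ between the Intact-named and the OVX arrays. Gland removal therefore cannot be told apart from whatever the prefix stands for. Each OVX group also had 3 arrays. The midbrain was taken as a gross dissection. The labels do not tie arrays to animals, so the p-values measure the spread between these arrays, which may be technical.

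Mating that the female paces is known to be rewarding, and the midbrain holds dopamine neurons of the ventral tegmental area that take part in reward and in sexual receptivity. Progestogens made in the brain, among them allopregnanolone, act there on GABA-A receptors. Sensory and social stimulation is known to induce immediate early genes such as Fos within minutes, while slower genes follow over hours. The comparison asks which transcripts differ in the midbrain after a mating bout.

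The arrays labelled Intact-3 and Intact-5 went against the female label. Xist, the RNA that coats the inactive X chromosome of female cells, is covered by 4 probe sets, and these read 2.94 to 5.12 on those 2 arrays against 7.43 to 11.83 on the other 22 of the series, in log2 signal as throughout. Eif2s3y, a gene of the Y chromosome, read 7.79 and 8.13 on Intact-3 and Intact-5 and 2.44 to 3.76 on the other 22. Both arrays are labelled paced mated, so Intact-1 was the paced mated array whose Xist and Eif2s3y signals fitted the label. Where the library came from was not tested. Results are therefore given for the 6 arrays as labelled and again without Intact-3 and Intact-5. With those 2 left out, the paced mated side rests on Intact-1 alone.

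**Figure D1:**
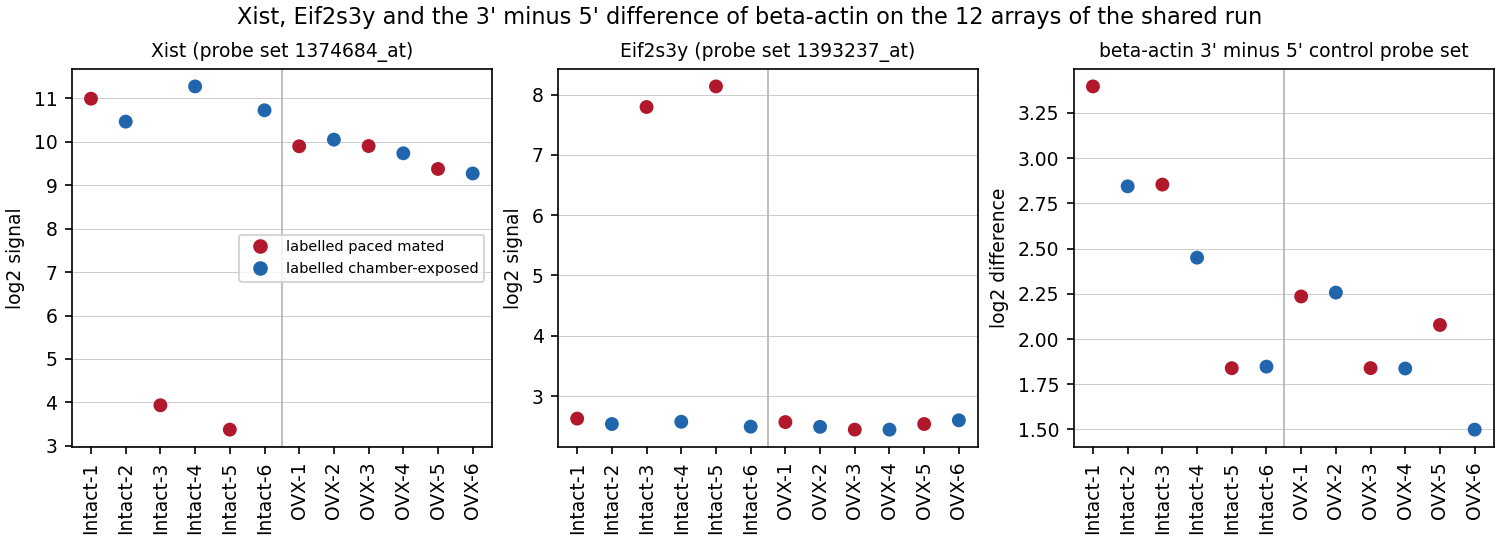
Log2 signal of Xist (probe set 1374684_at) and of Eif2s3y, and the 3′ minus 5′ difference of the beta-actin control probe sets in log2 units, for the 6 Intact-named and the 6 OVX arrays, 1 point an array, coloured by label. Intact-3 and Intact-5 sit at 3.94 and 3.38 for Xist and at 7.79 and 8.13 for Eif2s3y, away from the other 10 arrays.

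Markers of the dissected tissue varied between arrays. The lists of midbrain dopamine, cortical and hippocampal neuron markers had median percentiles of 47.7, 80.7 and 84.5 on the arrays. Th and Slc6a3 alone lay at 33.5 and 27.1. Which regions the RNA came from was not tested. Th, the first enzyme of dopamine synthesis, read 7.22 on Intact-1 and 5.69 to 6.0 on the other 5 arrays. Slc6a3, the dopamine transporter, read 7.51 on Intact-1 and 5.39 to 5.62 elsewhere. Both were thus highest on Intact-1 among the 6 arrays, but OVX-4 read 8.60 and 9.03 for them. The median of the 11 members of the dopamine neuron list was 7.51 on Intact-1 and 5.92 to 6.93 on the others. Nr4a2 was highest on Intact-2 and Drd2 on Intact-6, and Pitx3 and Foxa2 read 3.86 to 4.27 on all 6 arrays. Intact-1 also stood apart for hypothalamic peptides, with Avp (vasopressin) at 9.84 against 6.40 to 6.75 and Oxt (oxytocin) at 8.14 against 5.94 to 6.16. Neurod6, a transcription factor of cortical and hippocampal excitatory neurons, read 10.47 to 11.05 on all 6 arrays. Ttr, the transthyretin gene of the choroid plexus, ran from 10.89 to 14.51. Its 6 signals were high on Intact-1, Intact-2 and Intact-6 and lower on the others, with both labels on each side. In bulk tissue, fewer cells of a type and less RNA per cell cannot be told apart.

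**Figure D2:**
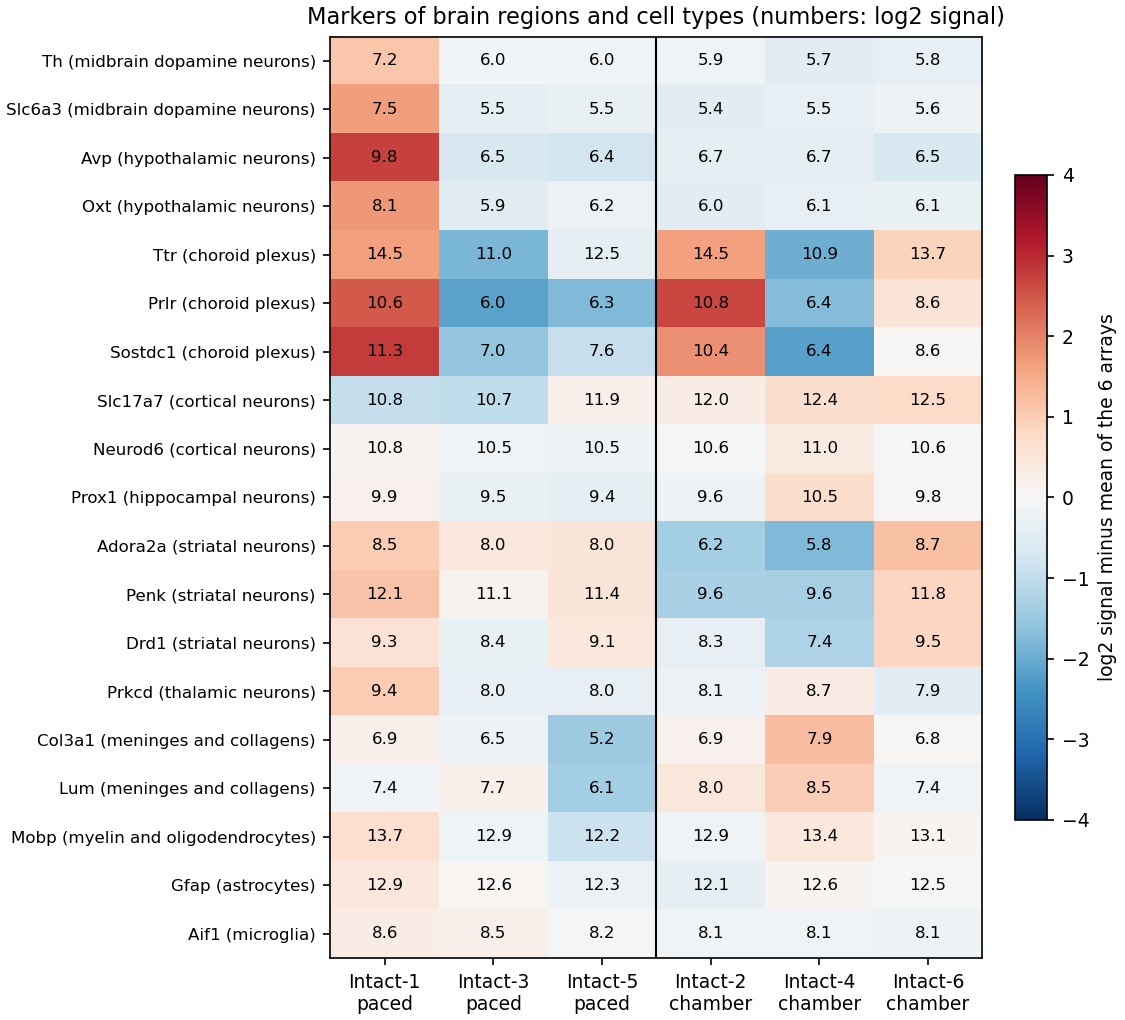
Heat map of 19 marker genes of brain regions and cell types on the 6 Intact-named arrays, with arrays in columns grouped by label. Each cell gives the log2 signal, and the colour gives its distance from the gene's mean over the 6 arrays. Th, Slc6a3, Avp and Oxt are highest on Intact-1.

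Over all probe sets the arrays correlated at 0.978 to 0.993, and pairs within a label (0.978 to 0.992) were no closer than pairs between labels (0.983 to 0.993). The beta-actin 3′ minus 5′ difference, which is known to grow as the copied RNA shortens, was 3.40, 2.85 and 1.84 on the paced mated arrays and 2.84, 2.45 and 1.85 on the chamber-exposed ones, against 0.97 to 1.13 in the other runs of the series. It overlapped between the labels.

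Of 27035 probe sets tested, 4 differed between paced mated and chamber-exposed arrays at an adjusted p under 0.05 (limma, Benjamini-Hochberg), which is 0.0148% of them. All 4 were lower on the paced mated arrays. An unadjusted p under 0.05 was found for 2163. Over all probe sets, 913 of the unadjusted calls were higher (3.38%) and 1250 lower (4.62%). The 4 differences ran from −2.74 to −1.48 in log2 units. Of the 4, 1 carries a gene symbol, Smurf2, a ubiquitin ligase known for limiting TGF-beta and BMP signalling. The other 3 have no symbol in the annotation used here.

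Probe set 1394620_at read 5.82, 6.0 and 5.96 on the paced mated arrays and 8.11, 8.09 and 8.23 on the chamber-exposed ones. The groups did not overlap, and each was tight, with means of 5.93 ± 0.097 and 8.14 ± 0.073 (SD, n = 3). The difference was −2.22 (SE 0.095, adjusted p = 0.00113), a 4.65-fold lower signal. The 3 chamber-exposed arrays were the ones that stood apart. On the OVX arrays the probe set read 5.82 to 6.11 under both labels, and on the 6 intact arrays of the other run, which were normalized apart, it read 6.01 to 6.44. On arrays of estradiol-primed rats without ovaries and adrenals, also normalized apart, it read 5.86 to 7.16 with mating and 5.70 to 5.90 without.

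Probe set 1396658_at read 4.75, 4.76 and 4.89 on the paced mated arrays against 7.66, 7.75 and 7.21 on the chamber-exposed arrays (−2.74, SE 0.15, adjusted p = 0.00356). Its OVX signals went high and low under both labels, at 6.99, 4.70 and 6.92 with mating and 4.69, 6.69 and 6.21 without. High and low signals thus occurred under the same label on the OVX arrays. Smurf2 probe set 1398420_at behaved alike, with 6.31, 6.01 and 5.89 on paced mated and 7.84, 7.83 and 7.97 on chamber-exposed arrays (−1.81, SE 0.13, adjusted p = 0.0122). Of the OVX arrays, 1 mated and 1 chamber-exposed read 7.65 and 7.63, and the other 4 read 5.77 to 6.05. The probe set of Smurf2 with the higher signal, 1388607_at, read 9.38, 9.37 and 9.07 against 9.21, 9.24 and 9.19, a difference of 0.06. The 2 probe sets of Smurf2 therefore disagreed, and the lower signal of 1398420_at does not stand for the gene as a whole.

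Probe set 1396858_at read 5.77, 5.99 and 5.65 on the paced mated arrays and 7.24, 7.45 and 7.16 on the chamber-exposed arrays (−1.48, SE 0.13, adjusted p = 0.0368). Its OVX signals lay at 5.80 to 6.27, near those of the paced mated intact arrays. Without Intact-3 and Intact-5 the differences of the 4 probe sets were −2.33 (1394620_at), −2.79 (1396658_at), −1.57 (Smurf2 1398420_at) and −1.51 (1396858_at). None of the 4 then passed, with adjusted p of 0.0675, 0.121, 0.121 and 0.172, and 4110 probe sets had an unadjusted p under 0.05. When the spread was taken from the other 10 arrays of the run, leaving out those 2 arrays gave 80 calls, 47 of them higher on Intact-1. The same spread over all 12 arrays of the run gave 7 calls, 1 of them higher.

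**Figure D3:**
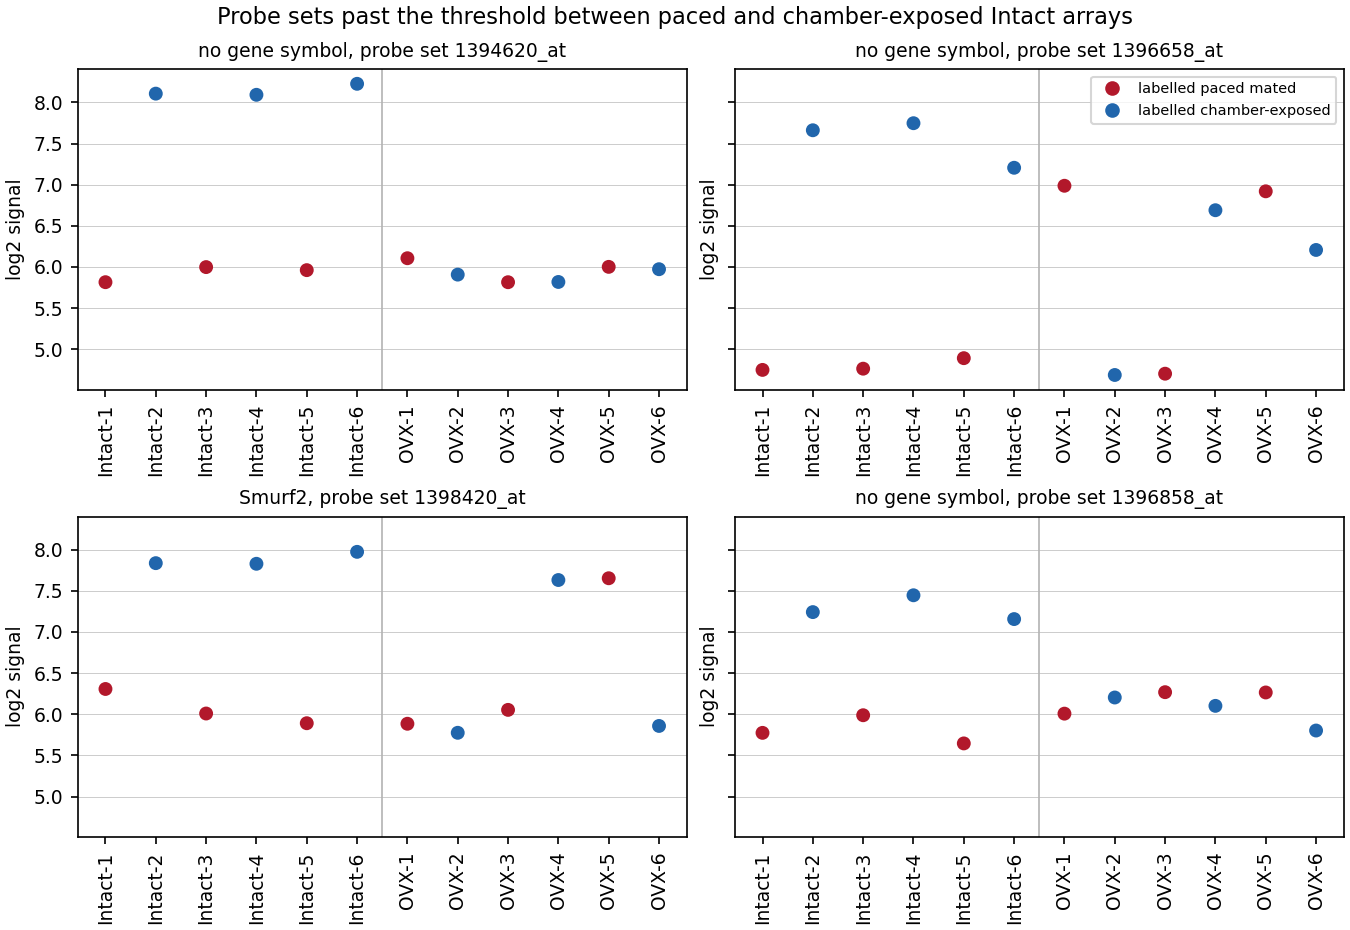
Log2 signal of the 4 probe sets past the adjusted threshold on the 6 Intact-named and the 6 OVX arrays, 1 point an array, coloured by label. The 3 chamber-exposed intact arrays sit above the 3 paced mated ones in each panel, and 1396658_at and Smurf2 1398420_at also reach high signals on some OVX arrays of both labels.

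The 7 calls made with the spread of 12 arrays kept 1394620_at and 1396858_at and left out 1396658_at and Smurf2 1398420_at (adjusted p = 0.160 and 0.238). They added Pml, whose protein builds nuclear bodies and is induced by interferon. Pml read 6.66, 6.49 and 6.48 on paced mated and 6.0, 5.88 and 5.88 on chamber-exposed arrays, a difference of 0.62 (adjusted p = 0.0364 with that spread and 0.267 from the 6 arrays). A second probe set of Pml differed by 0.19. They also added Trio 1392972_at, at 9.94, 10.01 and 10.00 against 10.62, 10.82 and 10.63, a difference of −0.71. Its adjusted p was 0.0111 with that spread and 0.214 from the 6 arrays. It is not the probe set of Trio with the highest signal, whose values are not given here. For Zbtb20, a transcription factor of hippocampal neurons and glia, 1385087_at read 6.84, 6.98 and 6.82 against 7.74, 8.10 and 7.88. The difference was −1.03 (adjusted p = 0.00822 with that spread and 0.172 from the 6 arrays). The groups were apart for Pml, Trio 1392972_at and Zbtb20 1385087_at, but the probe set of Zbtb20 with the highest signal overlapped, at −0.36. The remaining 2 calls, 1391375_at and 1398071_at, have no symbol and differed by −1.63 and −1.54.

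With 1 probe set a gene, that of the highest mean signal, 13081 genes were compared and none passed the adjusted threshold, while 739 had an unadjusted p under 0.05. Of these, 558 were higher on the paced mated arrays (4.27% of genes) and 181 lower (1.38%). Genes whose 3 paced mated arrays all lay above the 3 chamber-exposed arrays numbered 1305 (9.98%), and 448 lay below (3.42%). By mean, 8165 genes (62.4%) were higher on the paced mated arrays and 4916 (37.6%) lower, which is the background for the counts of list members below. The median difference was 0.04. Differences beyond 2-fold were found in 6 genes upward and 11 downward. The median standard error was 0.12, and with 3 arrays a label the precision is limited. An exact permutation test of 3 arrays against 3 cannot give a p below 0.10, so none is given for single genes.

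By the rule for named genes, the 12 genes with the smallest p among those apart between labels and at least 0.5 higher on paced mated arrays differed by 0.53 to 1.32, with adjusted p of 0.231 to 0.367. None of these changes passed the test. Rasgrp3, which activates Ras and Rap proteins, read 8.51, 8.33 and 8.31 on the paced mated arrays against 7.57, 7.58 and 7.77 (0.74, SE 0.10). Mx2, an antiviral GTPase induced by interferon, read 8.22, 8.17 and 8.20 against 6.51, 7.39 and 6.73 (1.32, SE 0.21). The paced mated arrays were close together for Mx2 and the chamber-exposed ones were spread. The complement component C3 read 7.58, 7.93 and 7.46 against 6.92, 6.40 and 6.78 (0.96, SE 0.18).

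Aadat, which makes kynurenic acid from kynurenine, read 7.54, 8.11 and 7.84 against 6.70, 6.98 and 6.91 (0.96). The lysosomal protease Ctsz read 8.45, 8.67 and 8.28 against 7.81, 7.78 and 7.93 (0.63). For Rab27b, a GTPase of secretory vesicles, signals of 8.56, 8.65 and 8.38 stood against 7.96, 7.88 and 7.61 (0.71), but its other probe set differed by 0.06. Clca1 differed by 1.08 and 1.03 in its 2 probe sets, and its signals were 7.28, 6.65 and 6.67 against 5.73, 5.96 and 5.68. The other members were Pml, Smco3 (0.70), Zfp317 (0.98), Pcdhb19 (0.53) and Birc7 (0.58). The rule required each paced mated array to lie above, so the sign without Intact-3 and Intact-5 was fixed by the choice. The same sign was found in 9 of 12 on the OVX arrays, where the differences were −0.28 to 0.39. It was found in 10 of 12 on the intact arrays of the other run, where they were −0.13 to 0.17. Whether the intact arrays of the 2 runs come from the same rats is not stated, so they are not taken as a second set of animals. The largest difference upward was that of Slc9a3, a sodium-proton exchanger, at 6.30, 7.59 and 6.71 against 5.62, 5.34 and 5.45 (1.4, adjusted p = 0.403).

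The 12 genes chosen in the same way in the other direction differed by −1.08 to −0.51, with adjusted p of 0.243 to 0.417, and none passed. Cdh22, a cadherin of the brain, read 10.95, 10.63 and 11.13 on paced mated and 11.93, 12.11 and 11.71 on chamber-exposed arrays (−1.01, SE 0.16), although its other probe set differed by 0.03. Sv2b, a protein of synaptic vesicles, read 13.05, 12.79 and 13.29 against 13.50, 13.80 and 13.77 (−0.65). Its other probe sets differed by −0.11 at most. Camkk2, a kinase upstream of AMPK, read 7.52, 7.62 and 7.42 against 8.01, 8.28 and 8.78 (−0.84), with 0.20 in its other probe set. For all 3 the groups were apart in the brightest probe set and not matched by another one. Pus7l, a pseudouridine synthase, read 5.75, 5.82 and 5.59 against 6.38, 6.65 and 6.46 (−0.78). The others were Fam185a (−1.08), Abcc6 (−0.90), Adam1a (−0.62), Sez6l (−0.61), Neurog2 (−0.58), Klhl3 (−0.58), Rgcc (−0.56) and Tnfrsf25 (−0.51). Here too the choice fixed the sign without Intact-3 and Intact-5. On the OVX arrays 7 of 12 had the same sign, with differences of −0.39 to 0.29. On the intact arrays of the other run 8 of 12 did, with differences of −0.10 to 0.10.

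Among the largest downward differences, that of Xist (−4.72, adjusted p = 0.594) came with the arrays labelled Intact-3 and Intact-5 and was 0.17 without them. Ephx2, an epoxide hydrolase, read 7.53, 5.98 and 6.01 against 8.28, 7.41 and 7.32, which gave −1.16 with all 6 arrays and −0.14 without those 2. Ugt8, an enzyme of myelin lipid synthesis, went from −1.14 to −0.36. Slc17a7, the vesicular glutamate transporter of cortical and hippocampal neurons, read 10.78, 10.72 and 11.95 against 12.03, 12.44 and 12.50 (−1.17, SE 0.33, adjusted p = 0.458). Its groups did not overlap, and the difference was −1.54 without the 2 arrays, −0.53 in its other probe set and −0.72 on the OVX arrays.

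Of 46 lists of genes with a shared role, none had a member past the adjusted threshold among 572 distinct members tested, so the lists are described by counts. The interferon response list, antiviral effectors and the factors that induce them, had 11 of 12 members higher on the paced mated arrays (62.4% of all genes were) and a median difference of 0.33, against 0.04 over all genes. Of its members, 4 had an unadjusted p under 0.05 upward (4.27% of all genes did) and 5 were apart upward (9.98% of all genes). Downward, 1 member had an unadjusted p under 0.05 (1.38% of all genes) and none was apart. The median was 0.56 without Intact-3 and Intact-5 and 0.17 on the OVX arrays. Besides Mx2, the members apart were Ifi27, Gbp2, Ifit3 and Irf1.

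Promoters of 4 members are shown because they hold the core of the interferon-stimulated response element, the DNA motif through which interferon is known to act, spelled GAAA, 2 bases of any kind and GAAA, and searched on both strands. The search was chosen after the signals were seen. Each line gives the 250 bases before the RefSeq start of the gene, 5′ to 3′ on the strand of the gene, with matches in capitals. The windows lie in build GRCr8 at chr2:234005477-234005726 (Gbp2, plus strand), chr6:128355062-128355311 (Ifi27, plus), chr1:241527076-241527325 (Ifit3, plus) and chr1:205800024-205800273 (Irf7, minus).
Gbp2: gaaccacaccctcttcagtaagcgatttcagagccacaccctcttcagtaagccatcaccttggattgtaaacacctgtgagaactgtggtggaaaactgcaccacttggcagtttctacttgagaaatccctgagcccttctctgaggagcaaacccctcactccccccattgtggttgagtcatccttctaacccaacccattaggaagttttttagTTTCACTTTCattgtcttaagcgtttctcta
Ifi27: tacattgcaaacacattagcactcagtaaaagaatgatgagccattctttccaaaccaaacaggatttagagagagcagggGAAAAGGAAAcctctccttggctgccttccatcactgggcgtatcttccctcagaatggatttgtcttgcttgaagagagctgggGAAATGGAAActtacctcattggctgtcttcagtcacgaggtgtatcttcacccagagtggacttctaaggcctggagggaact
Ifit3: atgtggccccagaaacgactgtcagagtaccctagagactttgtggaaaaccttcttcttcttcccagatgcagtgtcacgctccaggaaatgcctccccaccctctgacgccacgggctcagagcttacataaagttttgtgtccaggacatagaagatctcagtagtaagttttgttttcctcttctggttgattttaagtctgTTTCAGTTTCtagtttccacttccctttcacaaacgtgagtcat
Irf7: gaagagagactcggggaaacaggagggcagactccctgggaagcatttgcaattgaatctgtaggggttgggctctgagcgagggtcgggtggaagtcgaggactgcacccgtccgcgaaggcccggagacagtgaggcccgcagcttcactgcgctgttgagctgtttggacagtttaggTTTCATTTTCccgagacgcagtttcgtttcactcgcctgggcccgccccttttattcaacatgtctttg

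Of the 12 members tested, 8 have a promoter in the RefSeq table, and 6 of these hold the core (Ifit3, Ifi44l, Irf7, Oas1a, Gbp2 and Ifi27), against 3.92% of the 33469 promoters of the table over the same window, from 250 bases before to 50 after the start. Ifi27 holds it at 2 places. The members were listed for their role in the interferon response, so this share describes the list and not the arrays. Of the members apart between labels, Mx2 has no promoter in the table and Irf1 lacks the core. A match is a description of letters and shows no binding.

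Gbp2, a GTPase that attacks the vacuoles of pathogens, read 5.58, 5.36 and 5.43 on the paced mated arrays against 5.06, 4.93 and 5.01 (0.46, adjusted p = 0.403). Ifi27, whose promoter carries both matches above, read 10.97, 10.80 and 10.88 against 10.35, 10.63 and 10.47 (0.40, adjusted p = 0.443). Both groups were apart and narrow. Ifit3, which binds viral RNA together with its relatives, read 5.66, 5.45 and 5.39 against 4.77, 5.27 and 5.34 (0.38). Irf1, a transcription factor of the pathway, read 7.14, 7.31 and 7.08 against 6.96, 6.93 and 6.90 (0.25). Irf7, the factor that amplifies the response, overlapped at 7.59, 7.07 and 7.14 against 6.92, 7.13 and 6.85. So did the ubiquitin-like protein Isg15, at 7.38, 6.86 and 6.53 against 6.58, 6.60 and 6.15 (0.48). The member with an unadjusted p under 0.05 downward was Mx1, the close relative of Mx2, at 5.18, 5.56 and 4.83 against 6.17, 6.37 and 5.26 (−0.74, unadjusted p = 0.0448, adjusted p = 0.612), and at −0.61 on the OVX arrays. A second probe set of Mx2 differed by 0.16.

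**Figure D4:**
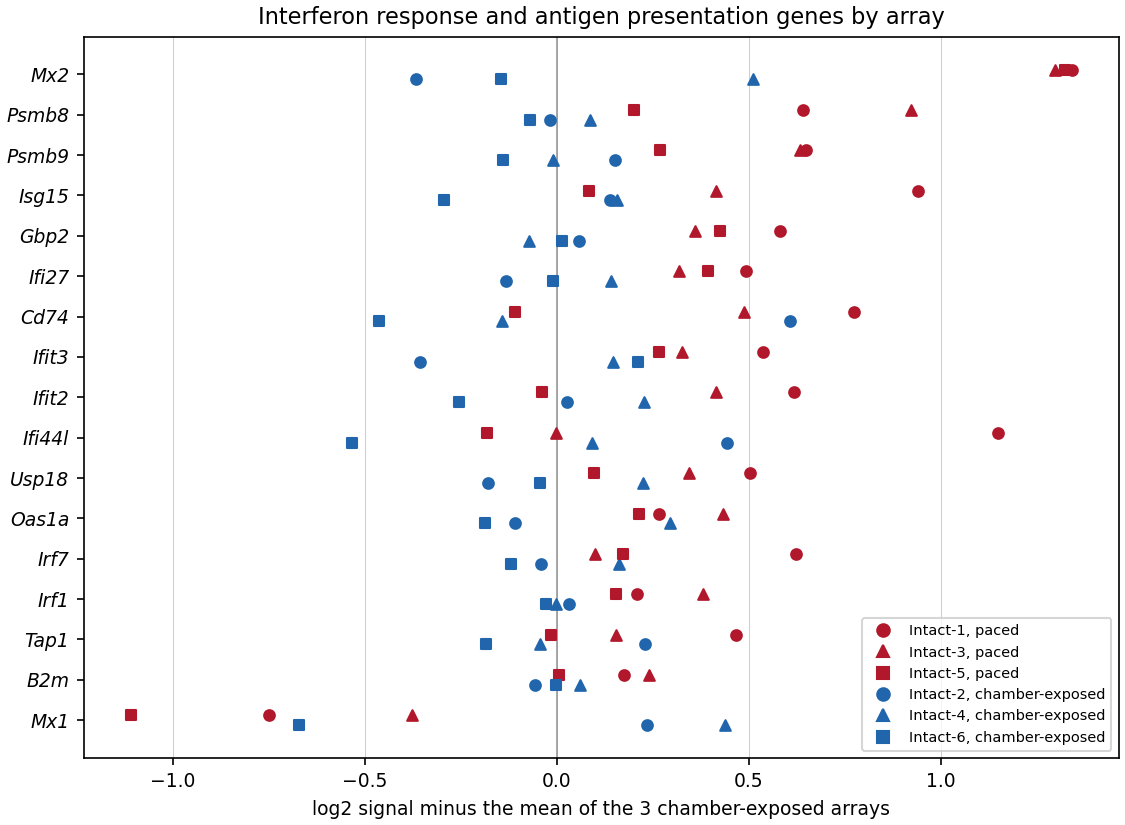
Log2 signal minus the mean of the 3 chamber-exposed arrays for the 12 interferon response genes and for Psmb8, Psmb9, Tap1, B2m and Cd74, on the 6 Intact-named arrays, 1 point an array, coloured by label. Mx2 lies highest at 1.32 above on average, Mx1 lies at −0.74, and most of the other genes have their paced mated points above 0.

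Genes of antigen presentation gave a median of 0.15, with 8 of 12 higher, near the 62.4% of all genes, and 2 apart upward (9.98% of all genes). These 2 were the immunoproteasome subunits Psmb8, at 7.20, 7.48 and 6.76 against 6.54, 6.64 and 6.49 (0.59, adjusted p = 0.490), and Psmb9, at 7.05, 7.04 and 6.67 against 6.55, 6.39 and 6.26 (0.52, adjusted p = 0.443). The class II chain Cd74 overlapped between labels, as did Tap1 and B2m. Of 12 microglia markers, 6 were higher and 6 lower, with a median of 0.00. Of these, 4 were apart upward (9.98% of all genes), Aif1, Trem2 (0.27), Tyrobp (0.32) and Csf1r (0.21). Aif1 read 8.55, 8.46 and 8.20 against 8.15, 8.11 and 8.06 (0.30). Tmem119 was apart downward (−0.34), as were 3.42% of all genes. An unadjusted p under 0.05 upward was found for 3 members (4.27% of all genes). Endothelial markers gave a median of 0.09 and blood markers 0.10. The part of these cells in the interferon values was not tested.

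Immediate early genes did not separate the labels. Of 25 members, 16 were higher and 9 lower, none had an unadjusted p under 0.05, and the median difference was 0.05. Without Intact-3 and Intact-5, 8 of the 25 were higher and the median was −0.07. Fos, the most used marker of neuronal activation, read 11.09, 11.04 and 11.51 on the paced mated arrays against 11.77, 10.56 and 11.15 (0.06, SE 0.29, adjusted p = 0.978). Egr1 read 12.84, 12.86 and 13.22 against 13.19, 12.41 and 13.11 (0.07), and Arc, a synaptic protein, 10.93, 11.41 and 11.50 against 11.45, 10.47 and 11.15 (0.26). In all 3 genes the chamber-exposed arrays spanned the paced mated ones or nearly so, with Intact-2 high and Intact-4 low. Nr4a1 followed that order, at 10.72 on Intact-2 and 9.66 on Intact-4. Sik1, a kinase induced by cyclic AMP, was the member apart between labels, and 9.98% of all genes were apart upward. It read 7.60, 7.61 and 7.80 against 7.53, 7.40 and 7.48 (0.21, adjusted p = 0.660). The cyclic AMP response element TGACGTCA, searched on both strands, was found in the promoters of 3 of the 19 members in the RefSeq table (Jund, Ier2 and Dusp1), against 1.83% of all promoters. The shorter site CGTCA, which overlaps it, was found in 13 of 19 against 21.2%. These shares describe the list and not the arrays.

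No gene of neurosteroid synthesis passed the test. Of 15 members, 11 were higher and 4 lower, with a median of 0.05 and no unadjusted p under 0.05. Star, which brings cholesterol into mitochondria, read 6.13, 6.27 and 6.24 on paced mated and 6.29, 6.07 and 6.15 on chamber-exposed arrays (0.05, SE 0.10). Tspo, the mitochondrial translocator protein, read 7.74, 7.46 and 7.38 against 7.59, 7.49 and 7.42 (0.03, SE 0.12). Cyp11a1, which makes pregnenolone, differed by −0.04, and Akr1c14, which makes allopregnanolone, by 0.07. The groups overlapped in these 4 genes. Sult2b1, a steroid sulfotransferase, was apart at 7.08, 7.04 and 6.89 against 6.84, 6.79 and 6.78 (0.20, adjusted p = 0.641). Hsd17b10 was the other member apart (0.08), and 9.98% of all genes were apart upward.

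Of 13 steroid receptor genes and partners, 7 were higher and 6 lower, with a median of 0.00. Nr3c1, the glucocorticoid receptor, read 9.52, 9.50 and 9.53 on paced mated arrays against 9.23, 9.23 and 9.39 (0.23, adjusted p = 0.594). It was apart upward, as were the membrane estrogen receptor Gper1 (0.34, adjusted p = 0.656) and 9.98% of all genes. Pgr, the progesterone receptor, overlapped at 4.35, 5.40 and 5.66 against 5.33, 4.96 and 5.30. Nr1i2, the pregnane xenobiotic receptor, read 3.90 to 4.11 on all 6 arrays (−0.03). Of 17 genes that glucocorticoids induce, 14 were lower and 3 higher, with a median of −0.14 that became 0.06 without Intact-3 and Intact-5. Fkbp5, a chaperone of that receptor, read 9.16, 9.38 and 8.83 against 9.16, 9.52 and 9.16 (−0.16). No member of that list was apart.

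GABA-A receptor subunits, the targets of allopregnanolone, were lower in 10 of 14 and higher in 4, with a median of −0.08. Their median was −0.22 without Intact-3 and Intact-5. Gabra5, a subunit of hippocampal extrasynaptic receptors, was apart at 11.41, 11.45 and 11.26 against 11.74, 11.95 and 11.48 (−0.35, adjusted p = 0.589), and differed by −0.39 on the OVX arrays. Gabrd, the delta subunit on which neurosteroids act strongly, overlapped at 9.40, 9.64 and 9.61 against 9.29, 8.90 and 9.55 (0.30). Among 9 GABA synthesis and transport genes, 3 were apart upward (9.98% of all genes were) and 2 downward (3.42% of all genes). The median of that list was 0.08, and −0.12 without Intact-3 and Intact-5. Slc32a1, the vesicular GABA transporter, lay at 9.65, 9.63 and 9.76 against 9.35, 8.99 and 9.57 (0.37, adjusted p = 0.609), with Abat (0.19) and Gabbr1 (0.20) the others upward and Slc6a13 (−0.43) and Gphn (−0.19) downward. Gad1, which makes GABA, differed by 0.12.

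Drd2, the D2 receptor, read 7.95, 7.65 and 7.91 on paced mated and 6.58, 5.92 and 8.32 on chamber-exposed arrays (0.90, adjusted p = 0.726). Adora2a, the adenosine receptor of striatal neurons, read 8.55, 7.98 and 8.02 against 6.18, 5.78 and 8.71 (1.29, adjusted p = 0.694). Penk, the enkephalin precursor, read 12.06, 11.08 and 11.41 against 9.65, 9.60 and 11.81 (1.16, adjusted p = 0.678). In each the chamber-exposed array Intact-6 lay with the paced mated arrays, and Intact-2 and Intact-4 lay below. All 14 striatal markers were higher on average (62.4% of all genes were), with a median of 0.33. Of them, 1 was apart upward, Six3 (0.34), as were 9.98% of all genes. The part of striatal tissue in these values was not tested. Avp differed by 0.91 and Oxt by 0.69, with the other 2 paced mated arrays at the chamber-exposed level. Creb1, a factor that binds the cyclic AMP element, read 7.61, 8.68 and 7.88 against 8.66, 9.16 and 9.14 (−0.93, adjusted p = 0.486), with −0.88 on OVX arrays and 0.07 in its other probe set.

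The anterior pituitary hormone genes that the study followed were at the low end of the arrays, with a median percentile of 18.3 and none of 7 above the middle of the array. Gh1 (growth hormone) read 5.80, 5.95 and 5.96 on paced mated and 5.93, 5.89 and 5.98 on chamber-exposed arrays (−0.03, SE 0.092, adjusted p = 0.961). Prl (prolactin) read 3.34, 3.63 and 3.46 against 3.46, 3.25 and 3.37 (0.12, adjusted p = 0.830). Lhb, a luteinizing hormone subunit, differed by 0.12, Tshb by 0.08, Cga by 0.10, Fshb by −0.01 and the receptor gene Gnrhr by −0.44. The other probe set of Gnrhr differed by −0.003. The groups overlapped in all 7 genes. Their median difference was 0.08, and −0.14 without Intact-3 and Intact-5. Klk1b3, a kallikrein, and S100g, a calcium-binding protein, differed by 0.12 and 0.03, and Grifin by −0.37. The study chose these genes, so they are not independent evidence of a direction.

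Of 17 clock genes, 9 were higher and 8 lower, and 3 had an unadjusted p under 0.05 upward (4.27% of all genes) and were apart (9.98% of all genes). Nr1d1, the REV-ERB-alpha repressor, read 8.59, 8.67 and 8.48 on paced mated against 8.21, 7.96 and 8.02 on chamber-exposed arrays (0.52, SE 0.10, adjusted p = 0.400). Bhlhe41 differed by 0.34 and Dbp, an output gene of the clock, by 0.32. The core genes Clock, Bmal1, Per1, Per2, Cry1 and Cry2 overlapped, at −0.10 to 0.14. The labels do not give the hour at which tissue was taken.

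Further members apart between the labels came from several lists. Nrg1, a growth factor, read 6.98, 6.90 and 6.85 against 6.54, 6.24 and 6.57 (0.45, adjusted p = 0.430), with differences of −0.21 to 0.52 in its other probe sets. The neurotrophin receptor Ngfr read 5.48, 5.39 and 4.67 against 4.52, 4.26 and 4.35 (0.81, adjusted p = 0.443). Egln3, an oxygen sensor, was apart upward (0.52), as was Dnajb1, a heat shock protein (0.26). Of 17 heat shock and folding genes 15 were higher (62.4% of all genes were), with a median of 0.12. Hsp90b1 was also apart upward (0.16), and Hsph1 was apart downward (−0.18), against 9.98% of all genes upward and 3.42% downward. Rasgrf2 (−0.65), Nectin3 (−0.36) and Slc17a7 were the 3 of 13 cortical markers apart downward (3.42% of all genes). Lmo3 was apart upward (0.20), and the median of that list was 0.01, and −0.18 without Intact-3 and Intact-5. Hippocampal markers were lower in 8 of 11 (37.6% of all genes were), and 3 were apart downward (3.42% of all genes). Their median was −0.22, with −0.14 without Intact-3 and Intact-5 and −0.20 on the OVX arrays. Collagen and meningeal genes had a median of −0.40, with Col1a1, Col1a2 and Col3a1 lowest on Intact-5 and highest on Intact-4, and −0.07 without Intact-3 and Intact-5. Choroid plexus genes moved from −0.08 to 1.32 and myelin genes from −0.05 to 0.68 when those 2 arrays were left out.

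**Figure D5:**
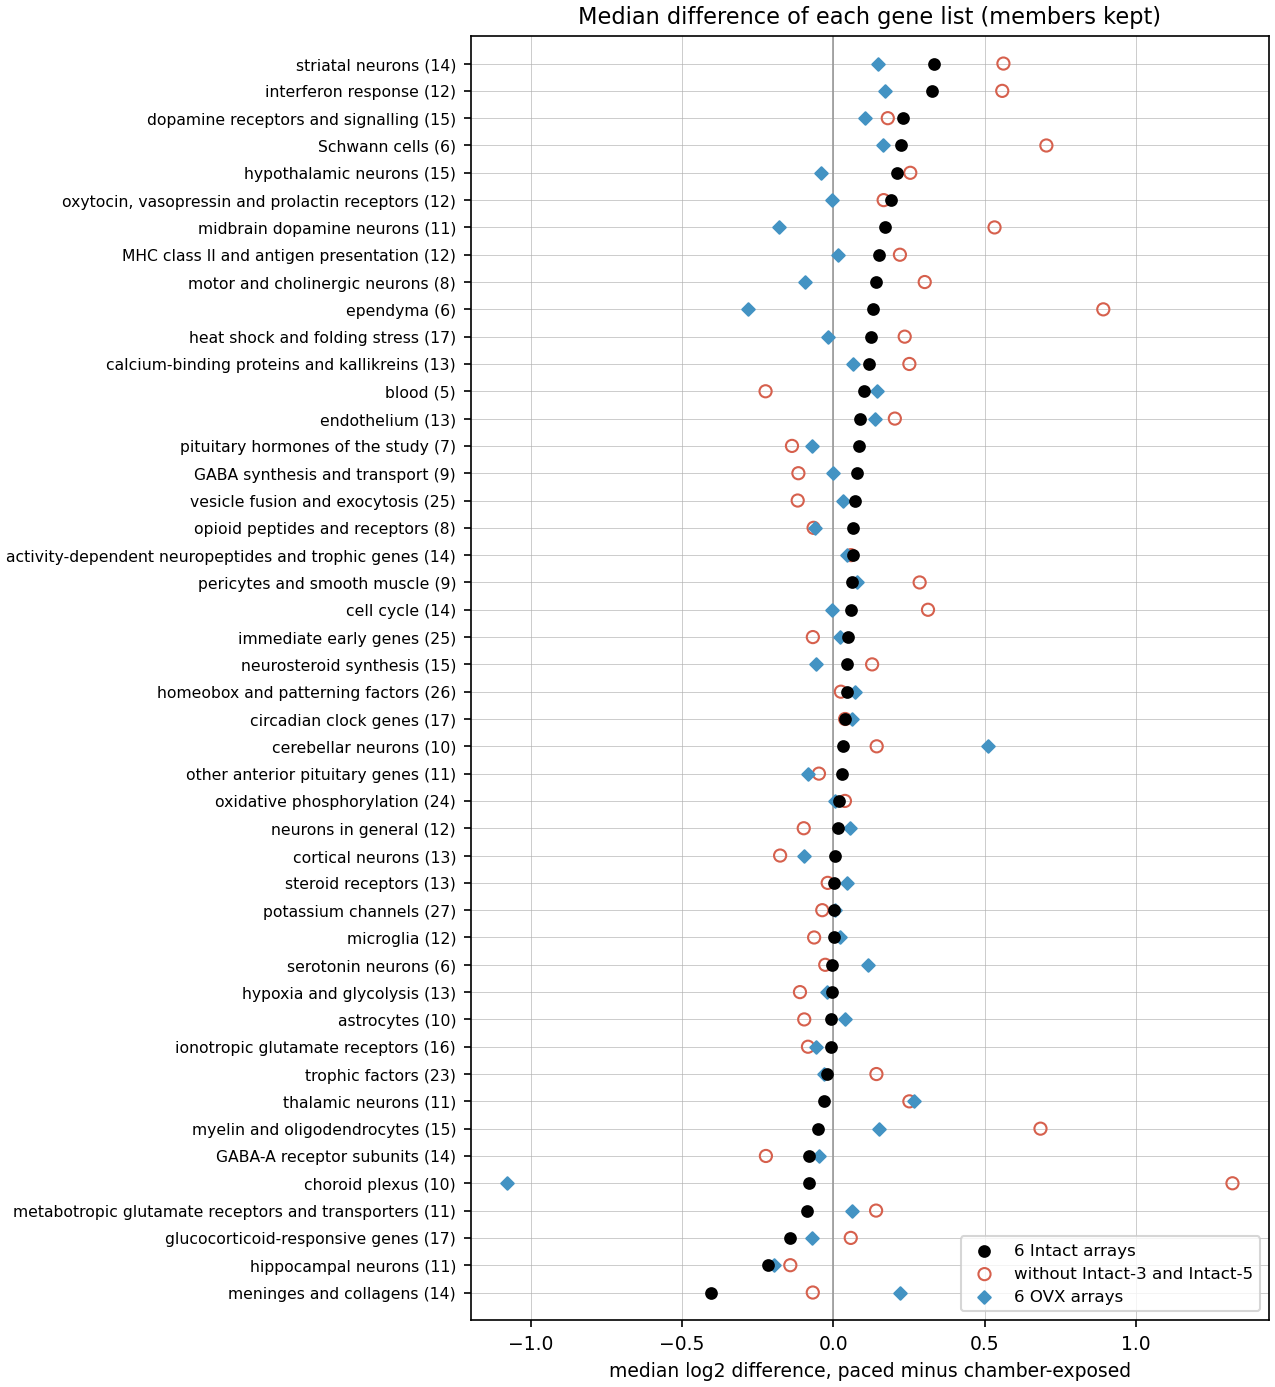
Median log2 difference, paced mated minus chamber-exposed, of the members of 46 gene lists on the 6 Intact-named arrays, on the same arrays without Intact-3 and Intact-5, and on the 6 OVX arrays. Interferon and striatal genes have the highest medians on the 6 arrays at 0.33, the meningeal list the lowest at −0.40, and the choroid plexus list moves most between the sets of arrays.

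The difference of the mating effect between the Intact-named and the OVX arrays was tested within the run they were inferred to share. These sets also differed in title prefix and in the beta-actin 3′ minus 5′ difference, and the part of either was not tested. It passed the adjusted threshold for 2 of 27035 probe sets (0.0074%), 1394620_at (−2.29, SE 0.13, adjusted p = 4.23e-05) and 1396858_at (−1.62, SE 0.19, adjusted p = 0.0336). No gene with a symbol passed. The difference was −3.08 for 1396658_at (adjusted p = 0.836) and −1.92 for Smurf2 1398420_at (adjusted p = 0.952), where the OVX arrays were spread. For Mx2 it was not past the threshold either, with OVX signals of 7.78, 7.74 and 7.20 on mated and 7.52, 7.80 and 6.77 on chamber-exposed arrays. On the OVX arrays alone, limma called 0 probe sets, and 455 had an unadjusted p under 0.05.

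Probe sets without a single gene symbol, those with none or with several, held a larger share of downward differences at an unadjusted p under 0.05. The comparison is given as counts and was not tested. Of 8185 such probe sets tested, 839 (10.3%) were lower with an unadjusted p under 0.05 and 196 were higher. Among the brightest probe sets of named genes the same counts were 181 lower (1.38%) and 558 higher, and among further probe sets of those genes 230 lower (3.99%) and 159 higher. On the OVX arrays 84 of the probe sets without a single symbol were lower and 64 higher at that threshold. The beta-actin 3′ minus 5′ difference was highest on Intact-1, at 3.40, while Intact-5 and Intact-6 were alike at 1.84 and 1.85. Its part in the downward share was not tested.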

How the data were processed

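RNA was measured on Affymetrix Rat Genome 230 2.0 arrays. The deposited values are log2 signals that the authors summarised with RMA. The software named in the submitters' processing notes is Affymetrix Expression Console 1.4. The methods of the study name GCRMA in GeneSpring instead. The lowest signals per array were 2.30 to 2.39 on the Intact-named and OVX arrays and from 3.58 on the other intact arrays. They were from 3.38 on the arrays of rats without ovaries and adrenals. From these values the Intact-named and OVX arrays were taken as 1 run and the others as normalized apart from it. Signals were used as deposited, and no test crossed runs.

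After removal of 57 controls from the 31099 probe sets, a probe set was kept if it reached its array's 20th percentile on 3 or more of the 24 arrays, which left 27035. Among all 31099 probe sets, 1 symbol was found for 20832, several symbols for 436 and none for 9831. Among those kept, 18850 had 1 symbol and 8185 had none or several. Groups came from the labels. Differences were fitted in R 4.3.3 with limma 3.58.1 (lmFit, eBayes) on the 6 arrays, and on 12 arrays for the interaction, with p-values adjusted over all probe sets kept by the Benjamini-Hochberg method at 0.05. The scripts were tested on simulated data.

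Named genes were, by rule, up to 12 in each direction past the threshold, filled by the smallest p among genes apart between labels by at least 0.5, then the 5 largest differences each way, up to 4 members of each list, the genes the study followed and tissue markers. Other list members are named as examples chosen after their values were seen. The members, lists and tests were chosen with earlier results of these data known. Alternatives covered the filter, the normalization, array weights, the spread of 12 arrays, an unmoderated test, probe set averaging and leaving out each array. Leaving out Intact-3 and Intact-5 was added after the data were seen. Promoters were RefSeq's, build GRCr8. Groups other than the Intact-named and OVX arrays were used for single values.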

Additional observations from a re-analysis of the deposited data

Results flagged for a closer look

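The mating effect differed between the Intact-named and the OVX arrays, by the interaction term of limma, for 2 probe sets without a gene symbol. For 1394620_at the effect on the Intact-named minus that on the OVX arrays was −2.29 log2 units (adjusted p = 4.23e-05), with the chamber-exposed intact arrays at 8.09 to 8.23 and all 9 other arrays of the run at 5.82 to 6.11. For 1396858_at the difference of the effects was −1.62 (adjusted p = 0.0336). It did not pass without Intact-2, Intact-4, Intact-5 or Intact-6, or without OVX-2, OVX-3, OVX-4, OVX-5 or OVX-6, each left out alone, with an adjusted p of up to 0.184.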

How the results depend on the processing

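The 4 calls of the mating effect on the Intact-named arrays were also counted as 4 with no filter on low signals, a filter at the 50th percentile or on the arrays in the fit, quantile normalization, subtracted array medians and a trended, robust fit. An unmoderated test gave 0 (1966 at an unadjusted p under 0.05), and 0 with a 2-fold limit. Array weights gave 1016, with a weight of 6.95 on Intact-3 and 0.363 on Intact-1, and the spread of the 12 arrays of the run gave 7. Without Intact-3 and Intact-5 there were 0 calls from 4 arrays and 80 with the spread of 10 arrays. Leaving out 1 array at a time gave 1 to 15 calls, with 15 without Intact-1, 1 without Intact-2 or Intact-3, and 2 without Intact-4 or Intact-6. Probe set 1394620_at passed in each of these 6 fits and 1396858_at in none of them. The interaction count of 2 was also 2 under the filters, normalizations, array weights and the trended fit, ran from 1 to 9 with 1 array left out (9 without Intact-1), and was 4 without Intact-3 and Intact-5. Genes past the threshold numbered 0 with the brightest probe set and 0 with the mean of the probe sets (847 at an unadjusted p under 0.05). The cause of these changes was not tested.

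With the title number as a replicate block, the interaction count was 1 (1620 at an unadjusted p under 0.05), and 1396858_at did not pass (adjusted p = 0.113). Same-numbered intact and OVX arrays correlated at 0.0176 to 0.314 in their deviations from the group means, and 1 of 6 numbers correlated best with its own, so the numbers were not taken as pairs.

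Some values changed sign, and none of these genes passed with all 6 arrays weighted alike. Xist passed with array weights (−6.52, adjusted p = 0.0295) and without Intact-1 (−7.16, adjusted p = 0.00034). Xist went to 0.17 without Intact-3 and Intact-5 under both spreads, and there Prl went to −0.0216 and Cga to −0.20. Gh1 was 6e-04 with quantile normalization and 0.013 with array weights, and Fshb was 0.002 with quantile normalization and 0.022 with subtracted medians. With 1 array left out at a time, the ranges were −0.0664 to 0.247 for Cga, −0.0579 to 0.025 for Gh1, −0.026 to 0.105 for S100g, −0.106 to 0.0693 for Fshb and −0.793 to 0.082 for Grifin. The sign of Cga turned without Intact-5, those of Gh1 and S100g without Intact-1, and that of Grifin without Intact-4.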
